A study of Rattus norvegicus with 14 samples.

Results

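The plasminogen activators, their cell-surface receptor and 2 serpins were followed across 7 rat cell lines. The genes were Plat, Plau, Plaur, Serpine2 and Serpinh1, and they were taken as all probes of the array that carry one of these 5 symbols. This gave 6 probes of 41012, with Serpine2 represented by 2 probes and each other gene by 1. All 6 probes were tested, among 29309 that rose well above background on A and B of 1 line or more. Serpinh1 is grouped with the others by its serpin fold, although it is not an inhibitor of plasminogen activators.

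Each line was measured on 2 one-colour arrays, A and B, which gave 14 arrays. The blastocyst-derived hypoblast stem cell lines were Fi1 (Fischer, male), Fi2 (Fischer, female) and Wk8 (Wistar-Kyoto, female). The bone marrow-derived lines were CL19 (Fischer, female), 3C3 (Fischer, male) and RMAPC-1 (Fischer, male). RClone-2 (Fischer, male) was the mesenchymal control and the only line of its kind, so its spread between lines was not measured and was taken to be that of the stem cell lines. The series title names the culture condition for multipotent adult progenitor cells (MAPC), and passage numbers and treatments are not given in the sources used here. The labels do not say whether arrays A and B came from separate cultures, so p-values measure the spread between the lines, each line counted once.

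Tissue-type plasminogen activator (Plat) and urokinase (Plau) cut plasminogen into plasmin, a protease that dissolves fibrin and helps to break down extracellular matrix. The urokinase receptor (Plaur) holds urokinase at the cell surface, and serpins such as Serpinb2 (plasminogen activator inhibitor-2) and Serpine2 (protease nexin-1) trap the activators. In rodent embryos, hypoblast derivatives are a classic source of these enzymes, with tissue-type activator known from parietal endoderm and urokinase from visceral endoderm. Serpinh1 (HSP47) is a chaperone of procollagen in the endoplasmic reticulum, a function of weight in parietal endoderm because these cells lay down a thick basement membrane.

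The probes below are shown because the measured transcripts are defined by them, and all have a reading frame without a stop codon on the printed strand. Coordinates follow the rat build rn4 of the scanner files. The Plat probe covers 73717402 to 73717547 on the minus strand of chromosome 16, an interval of 146 bases for 60 bases of probe. The Plau probe covers 3680711 to 3680770 on the minus strand of chromosome 15, and the Plaur probe 79713035 to 79713094 on the plus strand of chromosome 1. One Serpine2 probe, A_44_P409694, covers 79114055 to 79114114 on the minus strand of chromosome 9.
Plat: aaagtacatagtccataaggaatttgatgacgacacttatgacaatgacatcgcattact
Plau: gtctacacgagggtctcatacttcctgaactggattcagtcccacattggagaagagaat
Plaur: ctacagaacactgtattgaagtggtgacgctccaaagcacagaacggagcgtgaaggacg
Serpine2: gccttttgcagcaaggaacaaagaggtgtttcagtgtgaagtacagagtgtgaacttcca

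The other Serpine2 probe, A_44_P438863, lies at 79091862 to 79091921 on the same strand of chromosome 9 and has 0 reading frames without a stop codon. The Serpinh1 probe is placed at 156666914 to 156666946 on the minus strand of chromosome 1, an interval of 33 bases for 60 bases of probe. The exon or untranslated region that each probe lies in was not assigned, because no annotation of the files' build was used here.

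Signals are given as log2 of the processed signal minus the 75th percentile of the same array, so that 0 is the 75th percentile and 1 unit is a doubling. Levels are compared between lines for 1 probe at a time, since probes differ in brightness. Between 61.7% and 68.0% of probes were well above background on an array, and 0 probes were saturated. The arrays lay on 4 slides. Arrays A of the blastocyst lines and CL19 shared slide 1 and their arrays B slide 3, whereas slides 2 and 4 held RClone-2 beside 3C3 and RMAPC-1. RMAPC-1 stood apart in its array pair, with 16.6% of tested probes differing more than 2-fold between A and B against 3.06% to 6.33% in the other lines. The lines were checked against marker lists, whose summed signals are in units of the 75th percentile signal. The 6 primitive endoderm markers summed to 124 to 158 on blastocyst arrays, 171 to 208 on bone marrow arrays and 0.947 to 0.963 on RClone-2 arrays. Mesenchymal markers, 9 in number, summed to 2.22 to 4.10, 1.43 to 1.67 and 367 to 478, respectively, with 5 or 6 of the 9 well above background on each stem cell array and 8 on the RClone-2 arrays. Thy1 was not well above background on any of the 12 stem cell arrays. Of the same list, Nt5e was not well above background in RClone-2, and Vcam1 was higher on blastocyst arrays (0.02 to 1.62 as log2 against the array's 75th percentile, the scale given above) than in RClone-2 (-1.91 and -2.83).

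**Figure D1:**
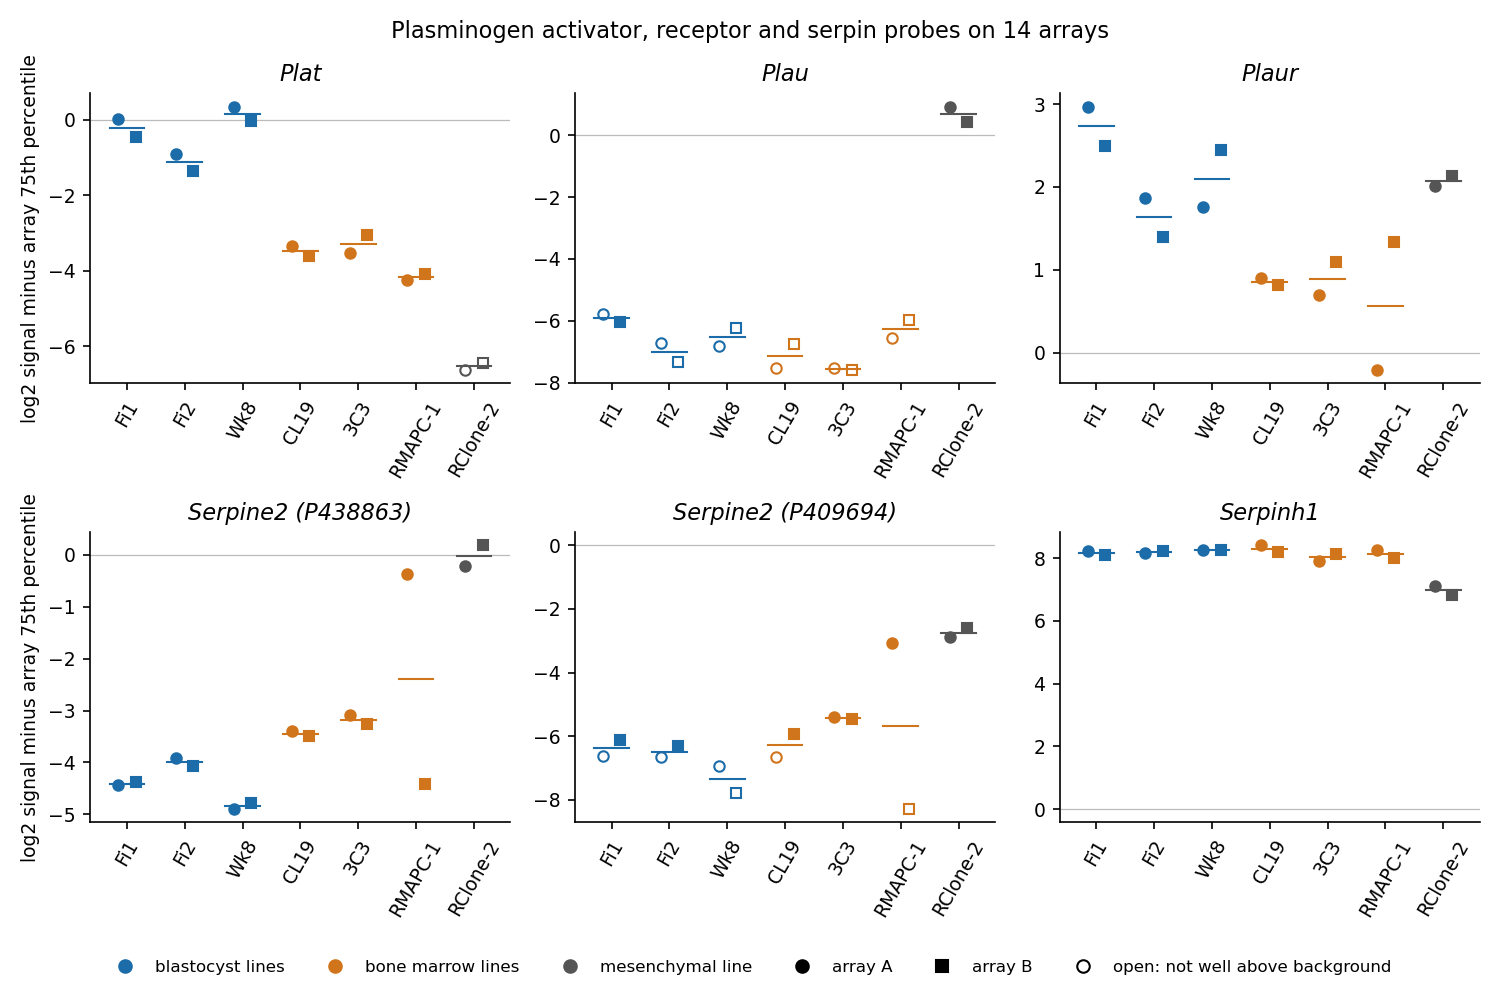
Signal of the 6 probes on each of 14 arrays (y axis, log2 signal minus the array's 75th percentile), by line (x axis). Circles are arrays A and squares arrays B, open symbols are not well above background, and short bars are line means. Plat forms 3 levels that do not overlap, Plau is high in RClone-2 alone among the 7 lines, and both Serpine2 probes differ widely between the arrays of RMAPC-1.

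Plat was highest in the blastocyst lines, lower in the bone marrow lines and not well above background in the mesenchymal line. The signals on arrays A and B were 0.01 and -0.45 in Fi1, -0.90 and -1.36 in Fi2, and 0.34 and -0.05 in Wk8. In the bone marrow lines they were -3.34 and -3.61 in CL19, -3.54 and -3.06 in 3C3, and -4.26 and -4.08 in RMAPC-1. RClone-2 gave -6.64 and -6.43. All 6 blastocyst arrays lay above all 6 bone marrow arrays, and these lay above both mesenchymal arrays. In bulk RNA, fewer cells with a transcript and less of it in each cell cannot be told apart.

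The mean Plat level was -0.40 ± 0.66 (SD, n = 3 lines) in the blastocyst group and -3.65 ± 0.46 (SD, n = 3 lines) in the bone marrow group. The difference was 3.24 ± 0.39 (SE), or 9.48-fold, with a limma adjusted p of 0.00662. Within the blastocyst lines the order was Wk8, Fi1 and Fi2. Wk8 and Fi1 overlapped array by array, and Fi2 lay below both. The Plat probe was printed in 10 spots per array, and their SD was 0.03 to 0.14 on stem cell arrays and 0.63 and 0.43 on the RClone-2 arrays. On the stem cell arrays the spots varied less than the lines did. Marker sums of other cell types moved between the same groups. The 9 parietal endoderm markers, all well above background, summed to 1163 to 1610 on blastocyst, 791 to 1087 on bone marrow and 206 to 270 on RClone-2 arrays. Of these, Nid1 was higher in RClone-2 (3.01 and 3.05) than on bone marrow arrays (-0.96 to 1.24), and Snai1 overlapped between them. The other markers of this list were higher on every bone marrow array than in RClone-2. The 7 visceral endoderm markers, of which 5 to 7 were well above background, summed to 4.72 to 50.8, 90.3 to 161 and 0.315 to 0.350 in the same order of groups. Amn and Cubn made up most of this sum on stem cell arrays, and the other markers lay below the 75th percentile on every array. Amn read 0.09 to 4.97 on blastocyst and 6.06 to 6.92 on bone marrow arrays. Ttr leaned the other way, at -4.83 to -2.32 and -5.74 to -4.39, and Rbp4 was highest in RClone-2. The 5 endothelial markers, all above background on the stem cell arrays and 2 on the RClone-2 arrays, summed to 1.22 to 3.05 on blastocyst arrays. Their sums were 0.312 to 0.813 on bone marrow and 0.0681 to 0.0725 on RClone-2 arrays. The part of these cell types in the differences of Plat and Plaur was not tested.

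The Plat difference from the mesenchymal line was at least 58.8-fold in the blastocyst lines (limma adjusted p = 0.000385) and at least 6.21-fold in the bone marrow lines (limma adjusted p = 0.00738). These bounds set the group mean against the lowest signal that counted as well above background on the RClone-2 arrays, or the probe's own signal there if higher. The fitted differences were 6.13 ± 0.55 and 2.89 ± 0.55 (SE). Their 95% intervals were 4.79 to 7.48 and 1.54 to 4.24, with lower ends below these bounds. Here and below, bounds compare the measured group means under this processing and leave out the spread between lines. Plat entered the tested set only through the stem cell lines, so its calls against RClone-2 are not independent of the background filter. With another background correction (normexp with an offset), the fitted differences were 3.04 for the blastocyst lines (limma adjusted p = 0.000943) and 0.74 for the bone marrow lines (limma adjusted p = 0.204). No omission of a line, of all arrays of 1 letter or of an RMAPC-1 array ended any of the 3 Plat calls. On slides 1 and 3, where CL19 is the only bone marrow line, the blastocyst lines exceeded it by 3.07, with an adjusted p of 0.178 over all probes.

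Plau showed the opposite placement. Its signal in RClone-2 was 0.92 and 0.44 on arrays A and B. In the stem cell lines it ran from -7.32 to -5.76 on blastocyst arrays and from -7.60 to -5.96 on bone marrow arrays. Only array B of Fi1, at -6.04, was well above background among these 12 arrays. Plau therefore entered the tested set only through RClone-2, and its calls against that line are not independent of the background filter. Urokinase signal thus lay at or near background in the stem cell lines and near the 75th percentile of the arrays in the mesenchymal line.

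The Plau level was at least 104-fold lower in the bone marrow lines than in RClone-2 (difference -7.67 ± 0.59 SE, limma adjusted p = 0.000210). For the blastocyst lines the difference was -7.16 ± 0.59 (SE), with 1 of 6 arrays above background (limma adjusted p = 0.000282), so that no fold is given. With normexp the differences were -3.66 for the bone marrow and -3.58 for the blastocyst lines (limma adjusted p = 0.000844 and 0.000992). Between blastocyst and bone marrow lines the difference was 0.51 ± 0.42 (SE; 95% interval -0.52 to 1.54; limma adjusted p = 0.385) and the lines overlapped. At this signal a difference in Plau between the stem cell groups was not measurable, as none of the bone marrow arrays was well above background.

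Plaur was measured on all 14 arrays and was higher in the blastocyst than in the bone marrow lines. Its signals on arrays A and B were 2.97 and 2.50 in Fi1, 1.86 and 1.40 in Fi2, and 1.76 and 2.44 in Wk8. The bone marrow values were 0.89 and 0.81 in CL19, 0.69 and 1.09 in 3C3, and -0.21 and 1.34 in RMAPC-1, and RClone-2 gave 2.01 and 2.13. The bone marrow arrays lay below the blastocyst arrays, with the highest, RMAPC-1 B, just under the lowest, Fi2 B. The mesenchymal line lay within the range of the blastocyst lines.

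The blastocyst mean of Plaur was 2.16 ± 0.55 and the bone marrow mean 0.77 ± 0.18 (SD, n = 3 lines each). The difference was 1.39 ± 0.29 (SE), or 2.61-fold, with a limma adjusted p of 0.0196. The call was lost without 3C3 (1.45, limma adjusted p = 0.0585), without RMAPC-1 (1.28, adjusted p = 0.0665), with RMAPC-1 read from its array B alone (1.13, adjusted p = 0.0523), without all A arrays (1.03, adjusted p = 0.0970) and against CL19 on slides 1 and 3 (1.30, adjusted p = 0.248). It was also lost with normexp (1.30, limma adjusted p = 0.0539), with the slide as a block (1.30, adjusted p = 0.101) and with a term for the slide pair (1.30, adjusted p = 0.169). Bone marrow lines lay 2.46-fold below RClone-2 (-1.30 ± 0.41 SE, limma adjusted p = 0.0432). That call was lost on leaving out Wk8, CL19, 3C3, RMAPC-1, either RMAPC-1 array, or either array letter, with adjusted p-values of 0.0580 to 0.143. It was lost as well with normexp, quantile normalisation, no filter on dim probes, the slide block and the slide-pair term (limma adjusted p = 0.0508 to 0.0802). Within slides 2 and 4 the difference was -1.34, with a limma adjusted p of 0.0392. Blastocyst lines and RClone-2 differed by 0.09 (95% interval -0.92 to 1.09; limma adjusted p = 0.878).

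A further probe, A_44_P212796, is described in the files as the urokinase receptor but carries no symbol, so it was not counted among the 6. It gave -1.40 ± 0.65 in the blastocyst lines, -1.39 ± 0.21 in the bone marrow lines (SD, n = 3 lines each) and -0.73 in RClone-2. The stem cell groups overlapped on it (difference -0.0015, limma adjusted p = 0.997). The higher Plaur level in blastocyst lines therefore rests on the probe that carries the symbol. Bone marrow lines and RClone-2 differed by -0.67 on the further probe, which was not called. The Plaur call between these 2 groups rests on the probe with the symbol as well.

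Serpine2, which inhibits both activators and thrombin, was highest in the mesenchymal line on both of its probes. On A_44_P438863, RClone-2 gave -0.21 and 0.18. The blastocyst arrays ranged from -4.90 in Wk8 to -3.92 in Fi2, and CL19 and 3C3 from -3.49 to -3.09. RMAPC-1 gave -0.37 on array A and -4.41 on array B, so that 1 array was at the mesenchymal level and the other among the blastocyst arrays. Apart from RMAPC-1, the 3 groups did not overlap on this probe.

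The second probe, A_44_P409694, repeated the split of the RMAPC-1 arrays, at -3.06 on A and -8.30 on B. RClone-2 gave -2.89 and -2.61, 3C3 -5.42 and -5.47, CL19 -6.65 and -5.93, and the blastocyst arrays -7.78 to -6.13. This probe was well above background on 2 of 6 blastocyst arrays, 4 of 6 bone marrow arrays and both mesenchymal arrays. From A to B of RMAPC-1, Serpine2 changed by -4.04 and -5.23 on its probes, and 58 and 18 of 29309 probes fell further. Plaur changed by 1.55 between the same arrays, with 1172 probes rising further, while Plat (0.17), Plau (0.59) and Serpinh1 (-0.28) moved less. The mesenchymal marker sum was 1.44 on array A and 1.67 on array B of RMAPC-1, and 367 to 478 on the RClone-2 arrays. What made the RMAPC-1 arrays differ was not tested.

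**Figure D2:**
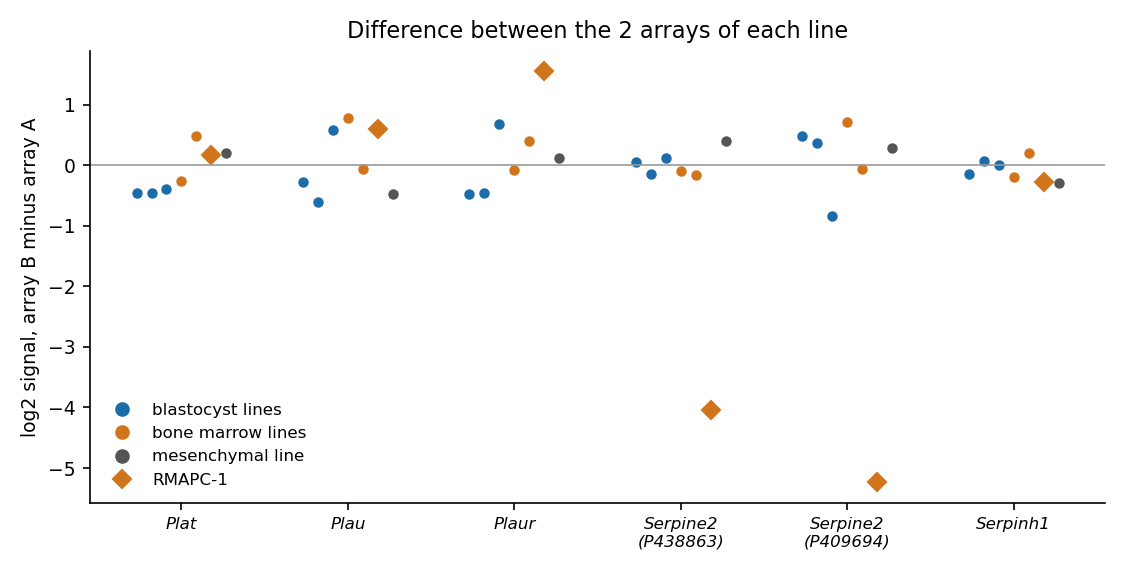
Difference between the arrays of each line (y axis, log2 signal of array B minus array A) for the 6 probes (x axis). Points are lines coloured by group, and diamonds mark RMAPC-1. RMAPC-1 lies at -4.04 and -5.23 for Serpine2 and at 1.55 for Plaur, and its Plat point at 0.17 lies among the other lines.

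Against RClone-2, Serpine2 was 21.1-fold lower in the blastocyst lines on A_44_P438863 (-4.40 ± 0.48 SE, limma adjusted p = 0.000845). On A_44_P409694, seen on 2 of 6 of these arrays, the difference was -3.99 ± 0.48 (SE, limma adjusted p = 0.00126), and -1.15 with normexp (limma adjusted p = 0.122). With the slide as a block both calls were lost (-3.73 and -3.26, limma adjusted p = 0.0596 and 0.183). In the bone marrow lines it was 7.93-fold and 8.31-fold lower (-2.99 ± 0.48 and -3.06 ± 0.48 SE; limma adjusted p = 0.00389 and 0.00360), the latter from 4 of 6 arrays above background. On A_44_P409694 this call was lost with normexp (-0.91, limma adjusted p = 0.215) and the slide block (-2.81, adjusted p = 0.0959). It was also lost with the array letter as a replicate block. Without array B of RMAPC-1 the bone marrow differences were -2.31 and -2.18, with adjusted p-values of 0.157 and 0.179. Without all B arrays they were -2.07 and -2.15 (adjusted p = 0.204 and 0.210). Between blastocyst and bone marrow lines, A_44_P438863 was 2.66-fold lower in the blastocyst lines (-1.41 ± 0.34 SE, limma adjusted p = 0.0280), and A_44_P409694 did not pass (-0.94 ± 0.34 SE, limma adjusted p = 0.0815). The first of these was not called with RMAPC-1 read from array B alone (-0.74, adjusted p = 0.206) or from array A alone (-2.08, adjusted p = 0.101). It was not called from the B arrays of all lines (-0.69, adjusted p = 0.227), from the A arrays of all lines (-2.13, adjusted p = 0.104), or without Fi1, Wk8, 3C3 or RMAPC-1 (-1.50 to -1.10, adjusted p = 0.0610 to 0.0760). Against CL19 alone on slides 1 and 3 the difference was -0.97, with an adjusted p of 0.261. Normexp (-0.65, limma adjusted p = 0.363), unscaled signals (-0.93, adjusted p = 0.0943) and the fits with the arrays in blocks (-1.41 to -0.97, adjusted p = 0.105 to 0.516) also ended the call.

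Serpinh1 was bright on every array and differed little among the stem cell lines. Its signals were 8.09 to 8.27 on blastocyst arrays, 7.92 to 8.40 on bone marrow arrays, and 7.12 and 6.82 on the RClone-2 arrays. All 12 stem cell arrays lay above both mesenchymal arrays. The chaperone was 2.36-fold higher in the blastocyst lines (1.24 ± 0.17 SE, limma adjusted p = 0.00203) and 2.27-fold higher in the bone marrow lines (1.18 ± 0.17 SE, limma adjusted p = 0.00249) than in RClone-2. Scaled on the spiked-in transcripts, the blastocyst difference was 0.60 with an adjusted p of 0.0807. The stem cell groups differed by 0.06 (95% interval -0.23 to 0.35; limma adjusted p = 0.730), and this became 0.48 after quantile normalisation (adjusted p = 0.0371) and 0.54 without scaling (adjusted p = 0.0205).

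Across the members, 3 of 6 probes passed between blastocyst and bone marrow lines, where 32.4% of all 29309 probes passed. Of these, 2 were higher in blastocyst lines, as were 9.13% of all probes, and 1 was lower, as were 23.3%. The share of higher probes among all calls of this comparison was 28.2%, and 13.6% to 84.7% under other scalings. Against RClone-2, 5 of 6 passed for the blastocyst lines (48.7% of all probes), with 2 higher (22.9% of all probes) and 3 lower (25.8%). All 6 passed for the bone marrow lines (46.8%), with 2 higher (27.0%) and 4 lower (19.8%). Line means of the groups did not overlap for 4 of 6 probes between blastocyst and bone marrow lines (52.0% of all probes), for 5 of 6 between blastocyst lines and RClone-2 (84.8%) and for 6 of 6 between bone marrow lines and RClone-2 (85.2%). Both stem cell groups were set against the same mesenchymal arrays, so these counts are not independent. Plau is in both counts of calls against RClone-2, although it entered the tested set only through that line. Plat is in both counts as well, although it entered only through the stem cell lines. Blastocyst and mesenchymal lines never shared a slide, and their difference can be separated from the slides only through the bone marrow lines. With slides 1 and 3 set against slides 2 and 4 as a term of the fit, the blastocyst minus mesenchymal differences were 5.88 for Plat, -6.93 for Plau, -3.73 and -3.26 for Serpine2 and 1.01 for Serpinh1, all still called (limma adjusted p = 0.00923 to 0.0340). With each slide as a block of the 14-array fit, Plat, Plau and Serpinh1 were called and neither Serpine2 probe was. With the term for slides 1 and 3 against slides 2 and 4, 0 of 29309 probes passed between blastocyst and bone marrow lines in limma. Of these, 7577 had an unadjusted limma p under 0.05. Within slides 2 and 4, the bone marrow minus mesenchymal differences were 2.80 for Plat, -7.59 for Plau, -2.77 and -2.81 for Serpine2 and 1.10 for Serpinh1, all called (limma adjusted p = 0.00880 to 0.0351). The Plat and Plau values in these fits have 1 side at background and are not measured folds.

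**Figure D3:**
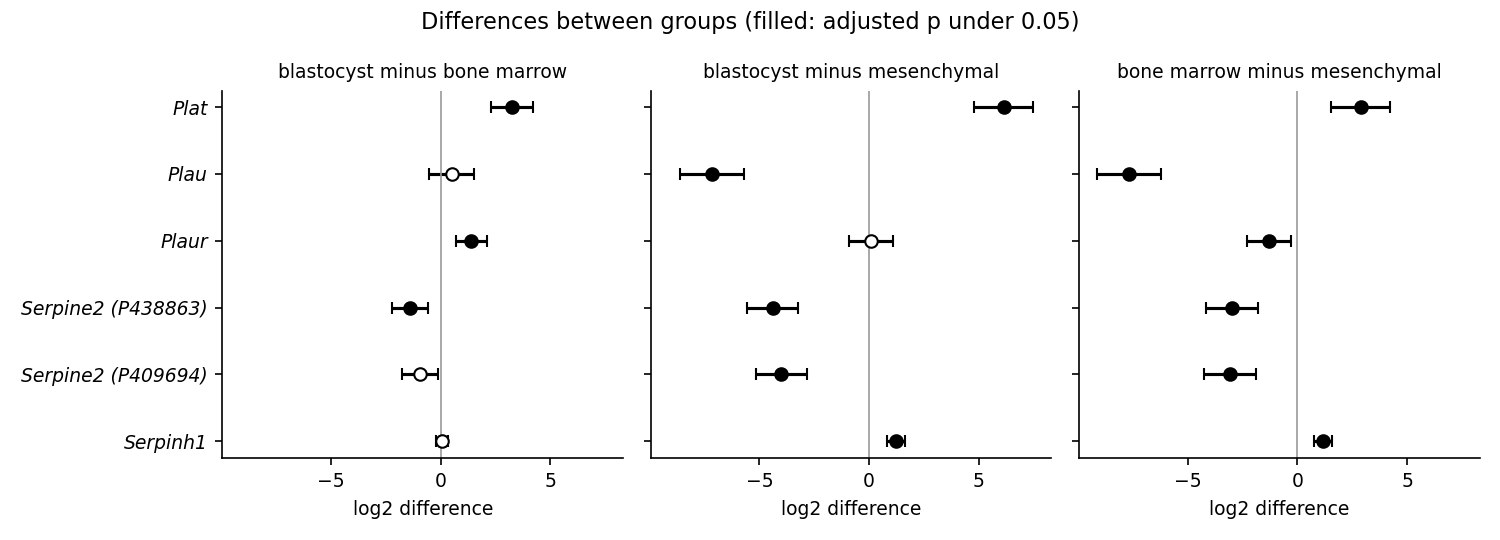
Differences between groups (x axis, log2) for the 6 probes (y axis), 1 panel per comparison. Points are limma estimates over 7 line means, bars are 95% confidence intervals, and filled points have an adjusted p under 0.05. Plat is positive in all 3 panels, and Plau and Serpine2 are negative against the mesenchymal line.

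Among other serpins of the system, Serpinb2 was also highest in the mesenchymal line. It was well above background in RClone-2 only, at 2.08 and 2.21. It was at least 384-fold and at least 292-fold lower in the blastocyst and bone marrow lines (limma adjusted p = 6.62e-05 and 7.47e-05), bounds that hold for this processing. With normexp the Serpinb2 differences were -5.53 and -5.43. Serpinb2 entered the tested set only through RClone-2, so its calls against that line are not independent of the background filter. Serpini1 (neuroserpin) and Serpinf2 (alpha-2-antiplasmin, the inhibitor of plasmin) did not pass in any of the 3 comparisons, with differences of -0.16 to 0.50. Plasminogen itself (Plg) did not rise above background on A and B in any line.

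**Figure D4:**
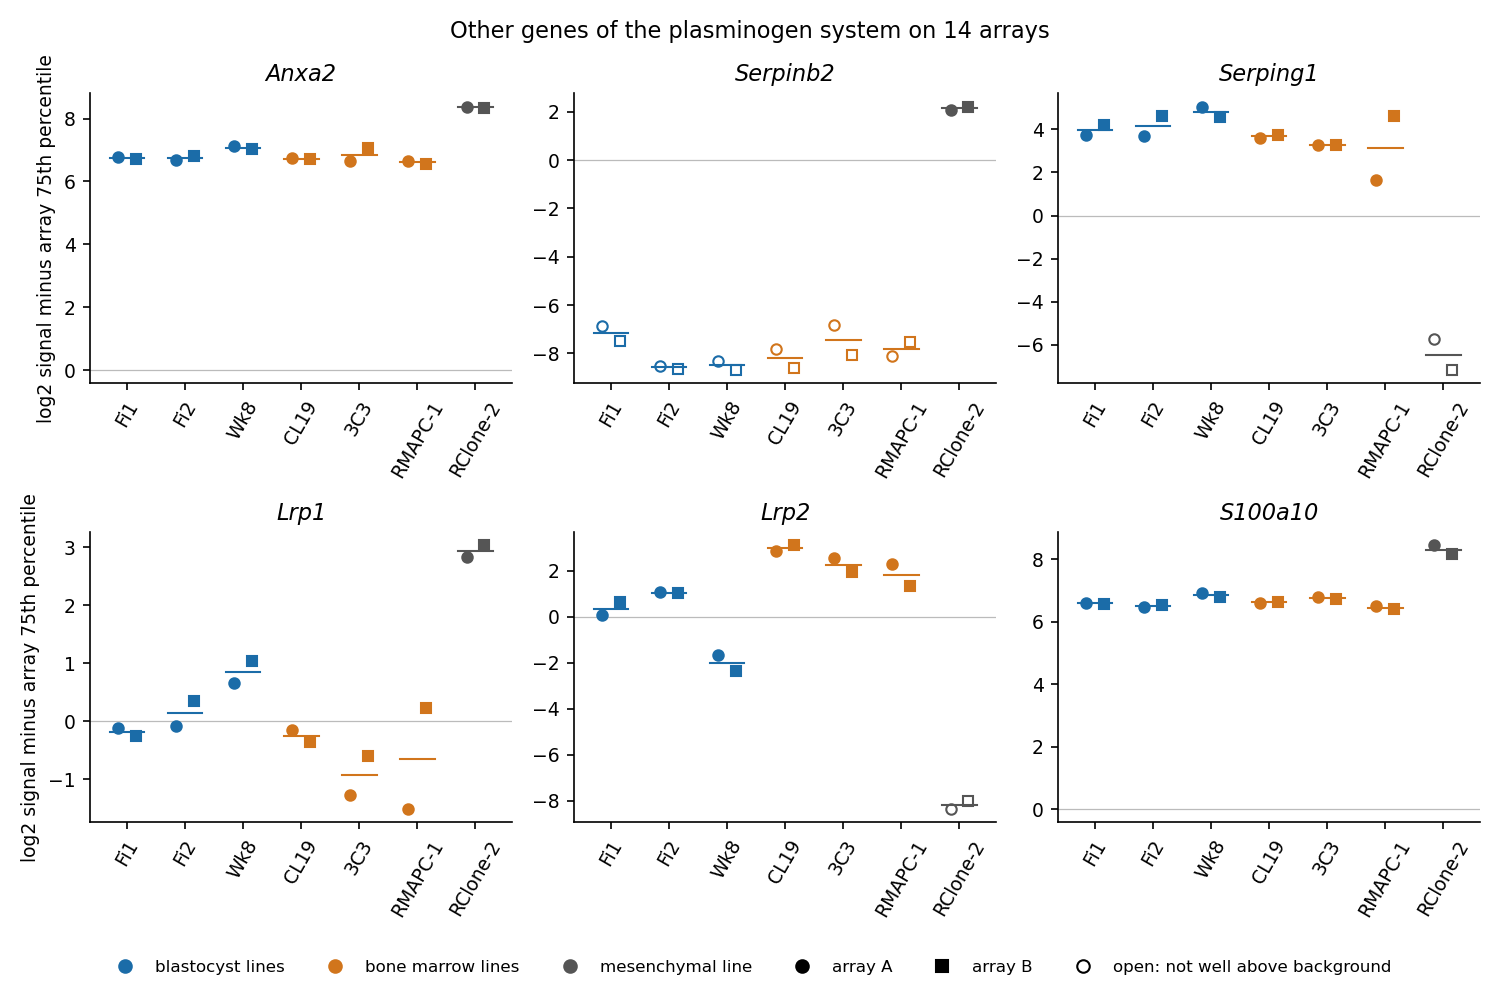
Signal of 6 further genes of the plasminogen system on the 14 arrays (y axis, log2 signal minus the array's 75th percentile), by line (x axis). Circles are arrays A, squares arrays B, open symbols are not well above background and bars are line means. Serpinb2, Lrp1, Anxa2 and S100a10 are highest in RClone-2, and Serping1 and Lrp2 are well above background in the stem cell lines only.

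Receptors for plasminogen and for activator-inhibitor complexes differed in direction. The plasminogen receptors Anxa2, S100a10 and Plgrkt were lower than in RClone-2 by differences of -1.74 to -1.51 in the blastocyst lines and -1.70 to -1.41 in the bone marrow lines (limma adjusted p = 0.00127 to 0.00288). Lrp1, an endocytic receptor that clears such complexes, was lower too (-2.65 ± 0.44 and -3.53 ± 0.44 SE; limma adjusted p = 0.00427 and 0.00145). Vldlr, of the same receptor family, was lower in the blastocyst lines (-6.49) and at least 53.8-fold lower in the bone marrow lines. Lrp2 (megalin), a further receptor of the family, was at least 74.9-fold higher in the blastocyst and at least 441-fold higher in the bone marrow lines. Among the protease genes, prothrombin (F2) was at least 119-fold and at least 80.5-fold higher than in RClone-2, and hepsin (Hpn) at least 26.1-fold and at least 63.3-fold. Serping1, the C1 inhibitor, was at least 1507-fold and at least 775-fold higher. Itga3, an integrin chain, was lower (-6.36 and -6.07). Each of the differences of Vldlr, Lrp2, F2, Hpn, Serping1 and Itga3 was called (limma adjusted p at most 0.00246). Lrp2, F2, Hpn and Serping1 entered the tested set only through stem cell lines, so these calls are not independent of the background filter. The same holds for the bone marrow call of Vldlr, which was not well above background on any bone marrow array. With normexp the differences of the blastocyst and bone marrow lines were smaller, at 7.30 and 6.43 for Serping1, 3.71 and 3.26 for F2, 3.28 and 5.73 for Lrp2, 1.74 and 2.75 for Hpn and -2.98 and -2.98 for Vldlr, and each was called (limma adjusted p at most 0.0453).

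Of 58 further genes of fibrinolysis and its receptors, 45 were tested. Against RClone-2, the blastocyst lines had 14 higher and 19 lower, with a median difference of -0.42 (-0.10 over all 24852 genes) and 73.3% called (48.8% over all genes). In the bone marrow lines 12 were higher and 19 lower, with a median of -0.40 (0.18 over all genes) and 68.9% called (46.4% over all genes). Between the stem cell groups 5 were higher in blastocyst lines, 8 were lower and 32 did not pass, with a median of -0.06 (-0.22 over all genes) and 28.9% called (32.8% over all genes).

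Matrix and receptor genes were among those that differed between the stem cell groups. Fibronectin (Fn1, 1.64 ± 0.27 SE) and the protein C receptor (Procr, 1.58 ± 0.22) were higher in the blastocyst lines (limma adjusted p = 0.0112 and 0.00875). St14 (matriptase, an activator of pro-urokinase) was lower (-1.89 ± 0.23 SE, limma adjusted p = 0.00662). The Procr call was lost with RMAPC-1 read from array B alone (1.15, adjusted p = 0.0641) and from the B arrays of all lines (1.06, adjusted p = 0.0875). Serping1 (0.96), Habp2 (-1.20), F2rl1 (-1.18) and Hrg (-0.87) passed (limma adjusted p = 0.0179 to 0.0402), and each lost its call without 3C3 (adjusted p = 0.0617 to 0.112), without RMAPC-1 (adjusted p = 0.0505 to 0.116) and in further omissions. Under the main processing Habp2 was at least 1.34-fold lower, being not well above background on any blastocyst array. It entered the tested set only through the bone marrow lines, so this call is not independent of the background filter. Over all alternatives, the call was lost in 14 of 26 settings for Habp2 and 9 of 26 for Hrg. For Serping1 this was 16 of 26, and for F2rl1 15 of 27. The differences ranged from -1.78 to -0.07 for Habp2, -1.13 to -0.16 for Hrg, 0.46 to 1.45 for Serping1 and -1.44 to -0.70 for F2rl1.

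Serpinh1 works with a set of enzymes and chaperones that fold and modify procollagen, of which 32 of 35 listed genes were tested. Between blastocyst and bone marrow lines, 7 were higher and 1 was lower, with a median of 0.26 (-0.22 over all genes) and 25.0% called (32.8% over all genes). Fkbp10 (1.88 ± 0.23 SE), P3h4 (1.60 ± 0.18) and Colgalt1 (1.10 ± 0.11), which act on collagen folding, hydroxylation and glycosylation, were higher in the blastocyst lines (limma adjusted p = 0.00549 to 0.00657). Serpinh1 itself did not pass in that comparison. Against RClone-2, the blastocyst lines had 9 higher and 8 lower (median 0.14, 53.1% called, against -0.10 and 48.8% over all genes), and 6 were higher and 9 lower in the bone marrow lines (median 0.26, 46.9% called, against 0.18 and 46.4% over all genes). The prolyl hydroxylase P3h2 was higher (6.42 and 6.14), as was the collagen-binding protein Sparc (1.39 and 1.30), whereas the crosslinking enzymes Lox (-9.66, and at least 493-fold in the bone marrow lines) and Loxl1 (-10.6 and -11.5) and the procollagen processing enhancer Pcolce (-5.09 and -6.08) were lower. Each of these 10 differences was called (limma adjusted p at most 0.00446). Lox was not well above background on any bone marrow array, so its call there is not independent of the background filter.

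Profiles across the 7 lines were compared with those of 12538 genes by the root mean square distance of centred line means, as a description without a test. The nearest to Plat were Gjb6 (0.25), 6330403K07Rikl (0.30) and Mmp23 (0.37), against a spread of Plat itself of 2.22. Nearest to Plau were Nrap, Pcdh7 and Gypc (0.26 to 0.36, spread 2.65). Nearest to Plaur were C4bpa, Crebrf and Uba7 (0.18 to 0.24, spread 0.74). Elavl4, Slitrk5 and Rhobtb3 lay nearest to Serpine2 (0.34 to 0.38, spread 1.49), a profile that includes the unequal arrays of RMAPC-1. Setd2, Tars1 and Hinfp lay nearest to Serpinh1 (0.05 to 0.07, spread 0.43).

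Plau and Serpine2 were both highest in the mesenchymal line, and the 250 bases before their start sites are shown here for that reason. The sequences are RefSeq's, of build GRCr8, on the minus strand of chromosome 15 from 3511988 to 3512237 for Plau and of chromosome 9 from 88637203 to 88637452 for Serpine2. Both strands were searched for 6 motifs, namely the TATA box (TATAAA), the GC box (GGGCGG), the AP-1 site (TGANTCA), the GATA site (AGATAA), the RUNX site (TGTGGT) and the heat shock element. Capitals mark every match.
Plau: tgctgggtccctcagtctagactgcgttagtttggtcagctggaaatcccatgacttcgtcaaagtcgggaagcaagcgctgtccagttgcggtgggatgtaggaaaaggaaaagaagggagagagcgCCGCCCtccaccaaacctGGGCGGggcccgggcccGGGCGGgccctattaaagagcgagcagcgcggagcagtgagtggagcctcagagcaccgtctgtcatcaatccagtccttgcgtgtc
Serpine2: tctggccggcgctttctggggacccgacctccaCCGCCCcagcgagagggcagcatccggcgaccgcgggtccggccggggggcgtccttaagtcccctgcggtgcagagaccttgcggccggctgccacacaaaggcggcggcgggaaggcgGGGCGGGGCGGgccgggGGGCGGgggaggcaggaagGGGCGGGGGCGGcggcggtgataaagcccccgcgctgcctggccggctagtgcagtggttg

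The Plau window holds 3 GC boxes and the Serpine2 window 6, of which 2 overlap by a base, and neither holds another of the motifs. A GC box is in 30.47% of 33469 promoter windows of this length. The Plaur window holds 1 AP-1 match (in 6.34% of windows), and the Serpinh1 window 1 GC box and 1 heat shock element (in 0.663% of windows), 35 bases before the start. The window of Serpinb2, also highest in the mesenchymal line, holds 1 AP-1 match and 0 GC boxes. These matches describe letters in the windows, and factor binding was not measured.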

How the data were processed

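RNA of 7 lines was hybridised to 14 one-colour rat arrays. The deposited scanner files give processed signal intensity, made with Agilent Feature Extraction 10.7.3.1 per the submitters' processing notes. The deposited table of log2 values held, array by array, the same sorted values as the scanner files, and was not used further. Outlier spots were dropped, spots of a probe averaged and the array's 75th percentile of log2 signal subtracted. Arrays A and B were averaged per line. Probes well above background on A and B of 1 line or more were fitted with limma 3.58.1 (R 4.3.3) over 7 line means and 3 contrasts, with Benjamini-Hochberg adjustment over 29309 probes and a threshold of 0.05. Symbols of 18006 of 41012 probes were updated through RefSeq, and 23006 kept the files' name. The fit was tested on simulated data. Precision is limited by the number of lines in each group. A gene's brightest probe stood for it in the lists.

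The members and lists were chosen with earlier results of these data known. Named were all member probes, the listed plasminogen genes, the 4 largest called differences each way per list and comparison, and the 3 nearest profiles per member. Some are given by count only, and some results are not reported here. Alternatives covered background, scaling, filters, blocks, slides and left-out lines. Within-slide fits were added after seeing the data. Promoters are RefSeq's, and Plat had no entry.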

Additional observations from a re-analysis of the deposited data

Results flagged for a closer look

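Among 12 sets of 6 arrays (6 probes in the blastocyst and the bone marrow arrays), 1 held an array far from the rest, where chance gives about 1 set in 20 of independent arrays. The arrays here are pairs from 3 lines, so that rate is only a guide. For the Serpine2 probe A_44_P438863, array A of RMAPC-1 read -0.37 (log2 signal minus the array's 75th percentile) and the nearest other bone marrow array read -3.09, a gap of 0.675 of the whole range. Array B of the same line read -4.41. The other Serpine2 probe split the arrays in the same direction, at -3.06 and -8.30, and 16.6% of all tested probes differed more than 2-fold between them. What made these arrays differ was not tested.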

How the results depend on the processing

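No alternative turned the direction of any called member probe. Between blastocyst and bone marrow lines, the 3 called member probes became 1 with normexp, 1 with the slide as a block, 0 with a term for the slide pair, 0 within slides 1 and 3, and 1 to 3 on leaving out a line, an array letter or an RMAPC-1 array; the 13 fibrinolysis genes became 4, 6, 0, 0 and 4 to 13. Against RClone-2, the 5 blastocyst probes became 2 with only probes above background on all 14 arrays, which drops Plat, Plau and a Serpine2 probe, and 3 with the slide block. The 6 bone marrow probes became 3 with that filter, 3 with normexp and 3 to 6 on omissions, and 33 and 31 fibrinolysis genes became 18 and 18 with the filter. The cause was not tested where none is named.

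Uncalled differences changed sign as follows. For blastocyst minus bone marrow, Serpinh1 gave -0.20 with spike-in scaling, -0.0928 with the slide block, pair term or within slides 1 and 3, and -0.00488 to 0.135 on omissions. S100a10 gave -0.0242 with normexp, -0.23 with spike-ins and -0.0654 to 0.109 on omissions, and Anxa2 -0.13 with spike-ins. Plgrkt gave 0.16 and Serpinb2 0.22 unscaled, and Serpinb2 0.11 with the slide terms. Serpinf2 gave 0.10 with quantile normalisation, 0.0813 with the percentile over probes above background on all arrays, 0.42 unscaled, 0.0601 with median centring and -0.34 to 0.30 on omissions. For blastocyst minus mesenchymal, Plaur gave -0.55 with spike-ins, -0.0421 with the slide terms and -0.20 to 0.35 on omissions, Serpini1 -0.29 with spike-ins, and Serpinf2 -0.38 with spike-ins, -0.39 with the slide terms and -0.0234 to 0.622 on omissions. For bone marrow minus mesenchymal, Serpini1 gave 0.0232 with normexp and Serpinf2 -0.0541 with spike-ins.

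Scaling and background correction both moved the balance of calls over all probes. In the main fit 28.2% of blastocyst minus bone marrow calls were higher, against 40.7% with normexp, a background correction. Among scalings the share was 13.6% with spike-ins, 43.3% with quantile normalisation and 44.3% with median centring. It was 45.5% with the percentile over probes above background on all arrays and 84.7% unscaled. The median over all probes moved from -0.20 to -0.46 with spike-ins and to 0.28 unscaled. For blastocyst minus mesenchymal 47.0% were higher, 69.2% unscaled and 21.7% with spike-ins, and for bone marrow minus mesenchymal 57.7% and, with spike-ins, 37.1%. The number of blastocyst minus bone marrow calls was 9492, and 1618 with normexp, 3597 with the slide block and 3025 to 9806 on omissions.

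The letters A and B did not pair the lines: deviations of arrays with the same letter in different groups correlated at -0.14 to 0.15. With the letter as a replicate block, 2, 5 and 5 member probes were called in the 3 comparisons and 11990 probes between blastocyst and bone marrow lines, against 12108 without the letter, and 17, 32 and 33 fibrinolysis genes. The deposited table was not run as an alternative because it held the same values. Dim signals, such as Plau in the stem cell lines and Plat in RClone-2, limit their fold changes to bounds, and fitted differences from them vary with the background correction.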
